A study of Mus musculus with 4 samples.

Results

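The genes described here are 32 mouse genes of cholesterol synthesis and sterol control, chosen by name and by their place in the pathway out of 36838 gene names on the array. They comprise 19 genes of the synthesis route, taken in order from the entry into the mevalonate pathway to cholesterol itself, and 13 genes of SREBP control, sterol transport and LXR-linked export and uptake control. The 32 genes were measured by 44 probes, and 29 of them were well above background on all 4 arrays.

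The series profiled small-molecule activators of chaperone-mediated autophagy (CMA) to look into how they act and how selective they are. Total RNA of NIH-3T3 cells, an established line of mouse fibroblasts, was labelled with Cy3 and hybridised to one-colour Agilent arrays. The 4 groups were untreated cells and cells exposed for 24 h to 20 µM AR7, 20 µM CA39 or 20 µM CA77, with 1 array per group and all cells of the wild type. AR7 binds the retinoic acid receptor RARα, and CA39 and CA77 are analogues developed from it. All cells were grown to confluency in medium with fetal bovine serum, whereas the study's methods name newborn calf serum for its cell cultures. Which serum these cultures received is thus uncertain. The treated cells received their compound in DMSO while no vehicle is named for the untreated cells. Vehicle and compound therefore cannot be told apart in any comparison with untreated cells, whether or not the compounds share the change.

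Cholesterol is built from acetyl-CoA through mevalonate, isoprenoid units, squalene and lanosterol. When sterol is scarce in the endoplasmic reticulum, SCAP escorts the SREBP transcription factors to the Golgi, where proteolysis frees the part that switches on the synthesis genes, and when sterol is ample the INSIG proteins hold SCAP and SREBP back. A second arm, the LXR receptors, senses oxidised sterols and switches on genes of sterol export. Fibroblasts such as NIH-3T3 both make cholesterol and take it up.

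The promoters of 4 genes are shown because the results turn on them: Hmgcs1 and Lss stand for the synthesis genes that moved together, and the paired INSIG genes moved in opposite directions between compounds. Each run is the 250 bases before the annotated start in RefSeq (GRCm38.p6), 5′ to 3′ on the gene's strand, with CCAAT, the core of the site bound by NF-Y, in capitals wherever it stands on either strand (ATTGG is the same box on the other strand). They lie at chr13:119690101-119690350 (plus strand), chr10:76531355-76531604 (plus strand), chr5:28071162-28071411 (plus strand) and chr1:121332590-121332839 (minus strand, 1 of the annotated starts of this gene).
Hmgcs1: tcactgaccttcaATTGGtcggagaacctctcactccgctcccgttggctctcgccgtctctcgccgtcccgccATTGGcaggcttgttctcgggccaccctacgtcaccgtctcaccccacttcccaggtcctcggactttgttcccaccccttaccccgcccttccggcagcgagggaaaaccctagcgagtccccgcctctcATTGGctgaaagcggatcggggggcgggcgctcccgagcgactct
Lss: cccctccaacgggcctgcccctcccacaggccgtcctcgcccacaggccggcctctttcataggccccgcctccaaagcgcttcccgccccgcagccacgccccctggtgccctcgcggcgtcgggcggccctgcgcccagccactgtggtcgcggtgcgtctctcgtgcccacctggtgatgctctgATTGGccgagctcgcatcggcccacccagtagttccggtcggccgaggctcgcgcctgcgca
Insig1: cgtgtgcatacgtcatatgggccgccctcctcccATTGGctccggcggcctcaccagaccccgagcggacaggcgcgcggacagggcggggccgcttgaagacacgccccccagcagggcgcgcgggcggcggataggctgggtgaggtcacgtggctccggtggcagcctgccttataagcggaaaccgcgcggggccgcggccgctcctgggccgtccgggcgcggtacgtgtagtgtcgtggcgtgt
Insig2: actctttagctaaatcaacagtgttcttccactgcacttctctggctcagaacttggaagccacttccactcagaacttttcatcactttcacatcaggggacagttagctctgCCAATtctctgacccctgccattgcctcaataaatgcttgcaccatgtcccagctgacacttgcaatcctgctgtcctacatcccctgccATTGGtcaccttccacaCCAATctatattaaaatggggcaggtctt

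The printed runs hold 3 such boxes for Hmgcs1, 1 for Lss, 1 for Insig1 and 3 for Insig2. Any part of the box in the direction of a change was not tested. Over windows of 300 bases, reaching 250 before and 50 after the start, 26 of the 32 genes had a RefSeq window, and CCAAT stood in 21 of these 26 and in 15 of the 16 synthesis genes with a window, against 41.1% of all symbols. The Sp1 box GGGCGG, searched in the same way on both strands, stood in 22 of the 26 genes and in 14 of the 16 synthesis genes, against 38.2% of all symbols. The sterol regulatory element in its classical form, ATCAC followed by any base and CCAC, was found in 0 of the 26 windows (0.27% of all symbols). The LXR element, a repeat of AGGTCA with 4 bases between, was also found in 0 (0.0148% of all symbols). With such low shares 0 of 26 is near the background, so it does not show that these promoters lack the elements. Variant forms were not searched. The printed Hmgcs1 run holds ctcaccccac, which differs from the searched sterol form by 1 letter. The 4 motifs share no letters that would make 1 match count for another. These are matches of letters in a short window, and binding was not measured.

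Levels below are normalised log2 intensities of a gene's brightest probe, in the order untreated, AR7, CA39 and CA77, and a difference is the level on one array minus that on another. A gene was called higher or lower when a difference reached 1.5-fold, which is 0.58 on the log2 scale, and the probe was well above background on at least 1 of the 2 arrays. No group has a replicate culture, so no test was possible and no p-value is given. The error that can be given is that within an array, from probes printed 10 times, and it amounts to a tolerance of 0.16 (log2) for a difference of 2 arrays. It does not cover the spread between cultures. The comparisons with untreated cells all use the same untreated array and are therefore not independent of each other, and both comparisons of CA39 with another compound use the same CA39 array.

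The synthesis route was lower with AR7 and CA77 and higher with CA39. Against untreated cells the median difference of the 19 synthesis genes was -0.51 with AR7 (range -0.91 to -0.03), 0.83 with CA39 (range 0.16 to 1.24) and -0.49 with CA77 (range -0.84 to 0.05), where the median of all gene names compared was -0.03, -0.02 and -0.04. These medians correspond to a level 1.42-fold lower with AR7, 1.78-fold higher with CA39 and 1.40-fold lower with CA77. In the bulk RNA of a culture, fewer cells that make a transcript and less of it per cell cannot be told apart.

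With AR7, 6 of the 19 synthesis genes fell past 1.5-fold and 0 rose, while over all gene names 3.22% were called lower and 3.28% higher. With CA39, 16 of the 19 rose past 1.5-fold and 0 fell, against 6.93% called higher and 4.9% called lower over all gene names. Of these, 6 passed 2-fold, against 3.86% of all gene names. With CA77, 8 of the 19 fell and 0 rose, against 3.53% called lower and 4.26% called higher. Without a threshold, 19 of 19 lay below 0 with AR7 (55.8% of all gene names), 19 of 19 above 0 with CA39 (36.4%) and 18 of 19 below 0 with CA77 (56.4%). Beyond the tolerance of 0.16, the differences of 17 genes were lower with AR7, those of 19 were higher with CA39 and those of 15 were lower with CA77. The share of synthesis genes called lower with AR7 and CA77 and higher with CA39 was thus well above the background share of each comparison. The genes were chosen with earlier results of these data known, so this excess is a description and not a test. Over the processing alternatives that kept all 19 genes, the count called lower was 5 to 9 with AR7, that called higher was 13 to 17 with CA39 and that called lower was 6 to 8 with CA77. Calls near the line depended on the processing, and those that ended are given with each gene.

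**Figure D1:**
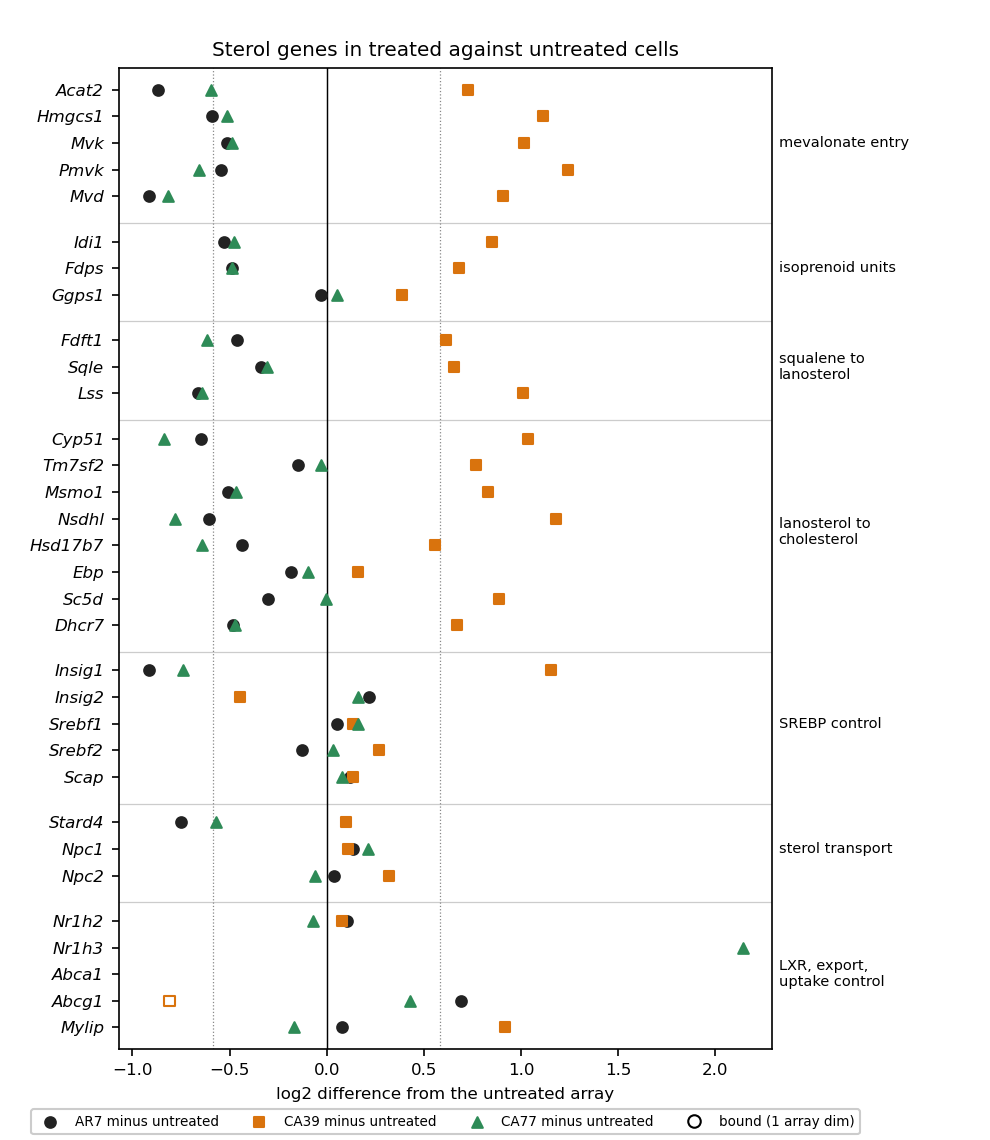
Difference from the untreated array (log2, x axis) for each gene (y axis, by step of the pathway), with AR7 as black circles, CA39 as orange squares and CA77 as green triangles. Each point is 1 array minus 1 array, open points are bounds because 1 array was not well above background, and dotted lines mark 1.5-fold. The orange points of the synthesis genes lie between 0.16 and 1.24, while the black points lie between -0.91 and -0.03 and the green points between -0.84 and 0.05.

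In the mevalonate entry, 5 of 5 genes rose with CA39 (6.93% of all gene names), with a median difference of 1.02, while the median was -0.59 with AR7 and -0.60 with CA77. Acat2, the cytosolic thiolase that joins acetyl-CoA units, stood at 10.30 in untreated cells, 9.43 with AR7, 11.03 with CA39 and 9.70 with CA77. It fell by 0.87 with AR7 and by 0.60 with CA77 and rose by 0.73 with CA39. Mouse Acat2 has a close copy, Acat3, and which of them its probe measures is uncertain. Hmgcs1, the synthase that makes HMG-CoA, stood at 15.59, 15.00, 16.71 and 15.08. It rose 2.16-fold with CA39 and fell 1.51-fold with AR7, and its value with CA77 was -0.52. The AR7 call of Hmgcs1 ended with the scanner's processed signal (-0.55 scaled to the 75th percentile, -0.48 after quantile normalisation) and with the local position median removed (-0.49), and the CA77 call of Acat2 ended with a background offset of 50 (-0.57). The CA39 array was the highest for both genes and the AR7 array the lowest.

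Mvk, the mevalonate kinase, read 15.58, 15.06, 16.59 and 15.09, and rose by 1.02 with CA39 with values of -0.52 for AR7 and -0.49 for CA77. A second Mvk probe gave -0.62, 0.91 and -0.78 for AR7, CA39 and CA77, so that the AR7 and CA77 values lay on either side of the 1.5-fold line depending on the probe. Pmvk, the kinase that acts on the product of Mvk, read 14.70, 14.16, 15.94 and 14.04. It showed the largest difference of the synthesis genes with CA39 (1.24, or 2.36-fold), fell by 0.66 with CA77 and stood at -0.55 with AR7. Its second probe gave 1.19, -0.63 and -0.59 in the same order. Mvd, the decarboxylase that closes this step, read 13.33, 12.42, 14.24 and 12.52. Its fall with AR7 (-0.91) was as large as its rise with CA39 (0.91), and it fell by 0.81 with CA77.

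The genes of the isoprenoid units were split. Idi1, which interconverts the 5-carbon units, read 15.99, 15.46, 16.84 and 15.51, and Fdps, which joins them to farnesyl diphosphate, read 17.14, 16.65, 17.82 and 16.65. Both rose with CA39, by 0.85 and 0.68, and neither passed 1.5-fold with AR7 (-0.53 and -0.49) or CA77 (-0.48 and -0.49). With percentile scaling the CA39 call of Fdps ended (0.53 from the processed signal, 0.56 from the deposited series table), and Idi1 passed the line with AR7 (-0.60 and -0.59). Ggps1, which makes geranylgeranyl diphosphate for protein prenylation and so leads away from sterol, read 11.70, 11.67, 12.08 and 11.75. Its differences of -0.03, 0.39 and 0.05 did not pass the call in any comparison, and those with AR7 and CA77 lay within the tolerance.

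Downstream of the Ggps1 branch point, Fdft1, Sqle and Lss form squalene and close it to lanosterol. Fdft1, the squalene synthase, read 13.79, 13.33, 14.40 and 13.17, rose by 0.61 with CA39 and fell by 0.62 with CA77, with -0.46 for AR7. A second, dim Fdft1 probe was well above background on 2 of the 4 arrays, untreated and CA39, and gave 0.72 for CA39. For AR7 and CA77 it gave -0.01 and -0.43, both bounds, and both came to 0 with a stricter floor, the 1st percentile of detected signal. Averaging the probes put CA77 at -0.54, under the line, and AR7 at -0.23. Sqle, the epoxidase, read 15.91, 15.57, 16.57 and 15.60, rose by 0.65 with CA39 and stood at -0.34 and -0.31 with AR7 and CA77. The CA39 calls of both genes ended with percentile scaling, at 0.55 and 0.54 for Fdft1 and 0.53 and 0.48 for Sqle from the processed signal and the deposited series table. Lss, which makes lanosterol, read 13.84, 13.18, 14.85 and 13.20. It moved past 1.5-fold with every compound, by 1.01 with CA39, -0.66 with AR7 and -0.64 with CA77.

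Between lanosterol and cholesterol, 6 of 8 genes rose past 1.5-fold with CA39, 2 fell with AR7 and 3 fell with CA77, against 6.93%, 3.22% and 3.53% of all gene names. Cyp51, the lanosterol demethylase, read 12.70, 12.05, 13.73 and 11.86, with differences of -0.64, 1.04 and -0.84 for AR7, CA39 and CA77. Nsdhl, a dehydrogenase that helps remove the methyl groups of carbon 4, read 12.85, 12.25, 14.03 and 12.08, with differences of -0.60, 1.18 and -0.78. For both genes CA39 gave the highest level and CA77 the lowest. A second Nsdhl probe gave -0.68 and 1.33 for AR7 and CA39 but -0.35 for CA77, a gap of 0.43 between the probes, and averaging them put CA77 at -0.56, under the line.

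Msmo1, the oxidase that starts removal of these methyl groups, read 16.23, 15.73, 17.06 and 15.77, a rise of 0.83 with CA39 against values of -0.51 and -0.47 with AR7 and CA77. Hsd17b7, the ketone reductase of the same step, read 12.19, 11.76, 12.75 and 11.55 and fell by 0.64 with CA77, while its CA39 value of 0.56 lay just under the line and its second probe just over it (0.62). The second probe gave -0.51 with CA77, on the other side of the line from the first, and the CA77 call also ended with the processed signal (-0.56 with either scaling). Tm7sf2, a sterol reductase, read 10.38, 10.23, 11.14 and 10.35, and rose with CA39 (0.77), although its second probe lay just under the line, at 0.58 against untreated and 0.58 against AR7. Its values of -0.15 and -0.03 with AR7 and CA77 were within the tolerance.

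Of the last enzymes, Sc5d, the desaturase, read 13.72, 13.42, 14.61 and 13.72, so that the CA77 level equalled the untreated level to within the tolerance while CA39 raised it by 0.89. Dhcr7, which makes cholesterol from its last precursor on this branch, read 11.58, 11.10, 12.25 and 11.11 and rose by 0.67 with CA39, with -0.48 and -0.47 for AR7 and CA77. Ebp, the sterol isomerase, had the smallest difference with CA39 of the synthesis genes (0.16), read -0.19 with AR7 and -0.09 with CA77, and was called in no comparison.

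Set directly against each other at the same dose and time, CA39 and AR7 differed at nearly every step. The median of the 19 synthesis genes was 1.33 higher with CA39 than with AR7 (2.52-fold, range 0.35 for Ebp to 1.82 for Mvd), where the median of all gene names was -0.03. Past 1.5-fold, 17 of 19 were higher with CA39 and 0 lower, against 9.43% and 7.48% of all gene names, and 14 passed 2-fold against 5.13%. CA39 against CA77 gave a median of 1.29 (2.45-fold, range 0.25 for Ebp to 1.96 for Nsdhl), with 17 of 19 higher past 1.5-fold and 0 lower (8.18% and 6.51% of all gene names) and 14 past 2-fold (4.5%). Ggps1 and Ebp were the genes under 1.5-fold in both comparisons, at 0.42 and 0.35 against AR7 and at 0.33 and 0.25 against CA77. By step, the median for CA39 over AR7 was 1.71 in the mevalonate entry, 1.17 for the isoprenoid units, 1.07 from squalene to lanosterol and 1.17 from lanosterol to cholesterol. Over CA77 the medians were 1.63, 1.17, 1.23 and 1.17 in the same order, so the entry step had the highest median in both.

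CA77 and AR7 were close. Their median difference over the 19 synthesis genes was 0.03 (range -0.21 to 0.30), and 0 of 19 passed 1.5-fold in either direction, where 3.9% of all gene names were higher with CA77 and 3.0% lower. For 14 of the 19 the difference lay within the tolerance of 0.16. Above it were Sc5d (0.30) and Acat2 (0.27), and below it were Hsd17b7 (-0.21), Cyp51 (-0.19) and Nsdhl (-0.17). The second Nsdhl probe gave 0.33 and the second Hsd17b7 probe -0.09, so for Nsdhl the probes disagreed in direction. Since the spread between cultures was not measured, differences of this size do not show that the compounds act alike or unalike.

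**Figure D2:**
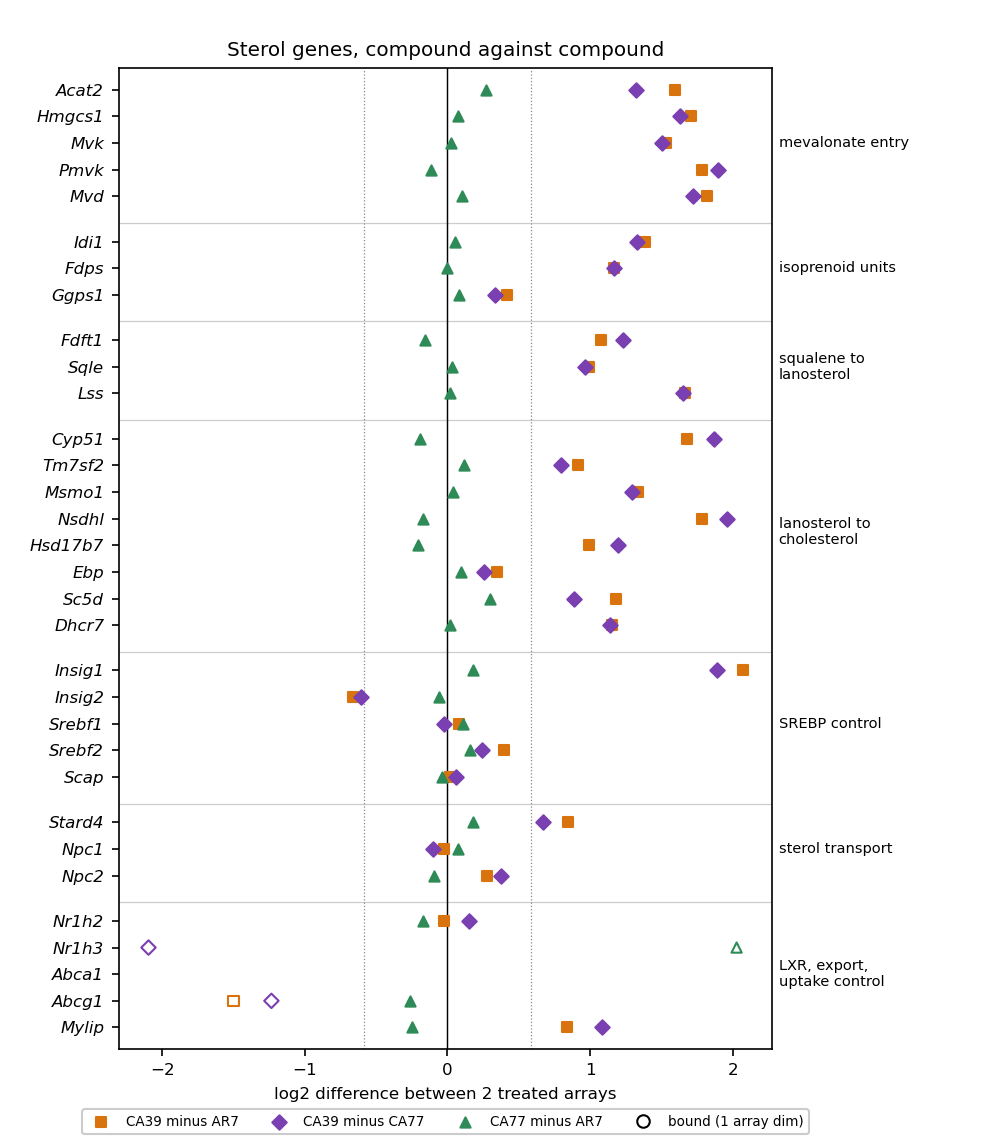
Difference between 2 treated arrays (log2, x axis) for each gene (y axis, by step), with CA39 minus AR7 as orange squares, CA39 minus CA77 as purple diamonds and CA77 minus AR7 as green triangles. Open points are bounds because 1 array was not well above background, and dotted lines mark 1.5-fold. The green points of the synthesis genes lie between -0.21 and 0.30, and the orange and purple points are above the 1.5-fold line for 17 of 19 genes in each comparison.

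Among the genes of SREBP control, the 2 INSIG genes parted. Insig1, itself a target of SREBP that closes the feedback loop, read 10.69, 9.77, 11.84 and 9.95. It rose 2.22-fold with CA39 and fell 1.89-fold with AR7 and 1.67-fold with CA77, and at 2.07 (4.20-fold) for CA39 over AR7 it showed the largest positive difference among the 32 genes in that comparison. CA39 over CA77 was 1.89. Insig2, which does the same holding work and is less tied to SREBP, read 13.99, 14.21, 13.55 and 14.15, lowest with CA39. Its differences from untreated cells were 0.22, -0.45 and 0.16 and did not pass the call. Compound against compound it was lower with CA39, at -0.66 against AR7 and -0.60 against CA77. A second Insig2 probe gave -0.59 and -0.79 for these comparisons.

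The genes that encode the sensor and the factors themselves were not called in any comparison. Srebf2, the SREBP gene that chiefly serves cholesterol synthesis, differed by -0.13, 0.27 and 0.03 with AR7, CA39 and CA77. A second Srebf2 probe gave 0.06, 0.29 and 0.17, of the other sign with AR7. Srebf1, whose products chiefly serve fatty acid synthesis, differed by 0.06, 0.13 and 0.16, and Scap by 0.12, 0.14 and 0.08. Srebf1 rests on 1 dim probe, which read 7.14, 7.20, 7.28 and 7.31. The 1st percentile of detected signal was 5.88 to 6.87 by array, so a small change of Srebf1 could be missed. Across the 5 SREBP control genes the medians were 0.06, 0.14 and 0.08. The arrays measure transcript, and cleavage of SREBP proteins was not measured.

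For sterol transport, Stard4, a cytosolic sterol carrier that is also an SREBP target, read 13.85, 13.10, 13.94 and 13.28. It fell by 0.75 with AR7, and its values were -0.57 with CA77 and 0.10 with CA39. CA39 over AR7 was 0.85 and over CA77 0.67, past 1.5-fold in both. Its second probe gave -0.48, 0.45 and -0.46 for AR7, CA39 and CA77, a gap of 0.36 from the first for CA39, while the compound comparisons stayed past the line at 0.93 and 0.92. Npc1 and Npc2, the pair that moves cholesterol out of lysosomes, were called in no comparison. Npc1 differed by 0.13, 0.11 and 0.21 and Npc2 by 0.04, 0.32 and -0.06 with AR7, CA39 and CA77.

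The LXR arm gave few measured values. Nr1h2, which encodes LXRβ, differed by 0.11, 0.08 and -0.07 and was not called. Nr1h3, which encodes LXRα, read 6.16, 6.27, 5.83 and 8.30 and was well above background on the untreated and CA77 arrays alone. Its difference of 2.14 with CA77 was not borne out by its second probe (0.26), and it turned to -0.13 with the deposited series table. Abca1, a sterol exporter, stood well above background on none of the 4 arrays. Abcg1, a second exporter, read 7.20, 7.89, 6.39 and 7.63 and was dim with CA39, where its spot did not stand well above background. It rose by 0.69 with AR7, a call that ended with a background offset of 50 (0.55), and its value with CA77 was 0.43. Against the dim CA39 array the level was at least 2.83-fold higher with AR7 and at least 2.35-fold higher with CA77, or at least 2.03-fold and 1.69-fold with the stricter floor.

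Mylip, an LXR-induced ubiquitin ligase that sends lipoprotein receptors to degradation, read 11.31, 11.39, 12.23 and 11.14. It rose by 0.92 with CA39 and stood at 0.08 with AR7 and -0.17 with CA77. The CA39 level was 0.84 above AR7 and 1.09 above CA77. A second probe gave 0.65 with CA39, 0.68 over AR7 and 1.13 over CA77. Mylip thus rose with CA39 on both probes while the dim exporter Abcg1 was lowest on the same array.

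Over all 32 genes, of which 31 were compared in each case, 1 rose and 8 fell with AR7 (3.28% and 3.22% of all gene names), 18 rose and 1 fell with CA39 (6.93% and 4.9%) and 1 rose and 9 fell with CA77 (4.26% and 3.53%). The single calls are no more than the background share gives. They were Abcg1 with AR7, the bound of Abcg1 with CA39, which ended with the stricter floor (-0.33), and Nr1h3 with CA77, the value that its second probe and the series table did not bear out. Between compounds, 20 were higher and 2 lower with CA39 than with AR7 (of 30, against 9.43% and 7.48% of all gene names), 20 higher and 3 lower with CA39 than with CA77 (of 31, against 8.18% and 6.51%), and 1 higher and 0 lower with CA77 than with AR7 (of 31, against 3.9% and 3.0%). The calls lower with CA39 were Insig2 and Abcg1 in both, with Nr1h3 against CA77 (-2.10, a bound), and the call higher with CA77 than with AR7 was Nr1h3 as well (2.03, a bound). Both Nr1h3 calls rest on 1 probe, since the second gave -0.12 and 0, and both came to 0 with the deposited series table.

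**Figure D3:**
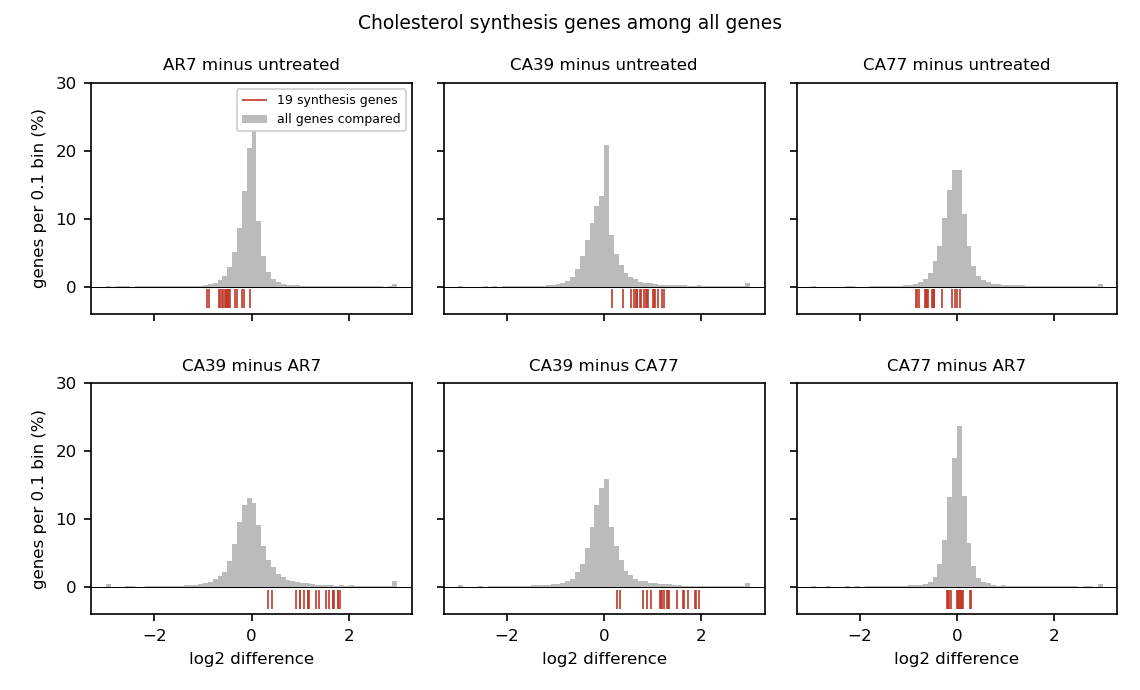
Share of all gene names compared in each 0.1 bin of log2 difference (grey bars, y axis in percent; differences beyond the ends are in the outer bins), with the 19 synthesis genes as red ticks, 1 panel per comparison. The ticks have medians of -0.51, 0.83 and -0.49 against untreated cells and of 1.33, 1.29 and 0.03 between compounds, while the grey bars centre near 0.

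For 10 genes a second probe was well above background on all arrays, of which 6 belong to synthesis. The probes shared their sign for 10 of the 10 with CA39, 9 with CA77 and 7 with AR7, and for 10 in both comparisons of CA39 with another compound. For CA77 against AR7 they did so for 6 of 10. The median gap between probes was 0.11, 0.13 and 0.14 with AR7, CA39 and CA77, close to the tolerance from repeated spots. For these 10 genes the direction with CA39 thus did not depend on the probe.

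**Figure D4:**
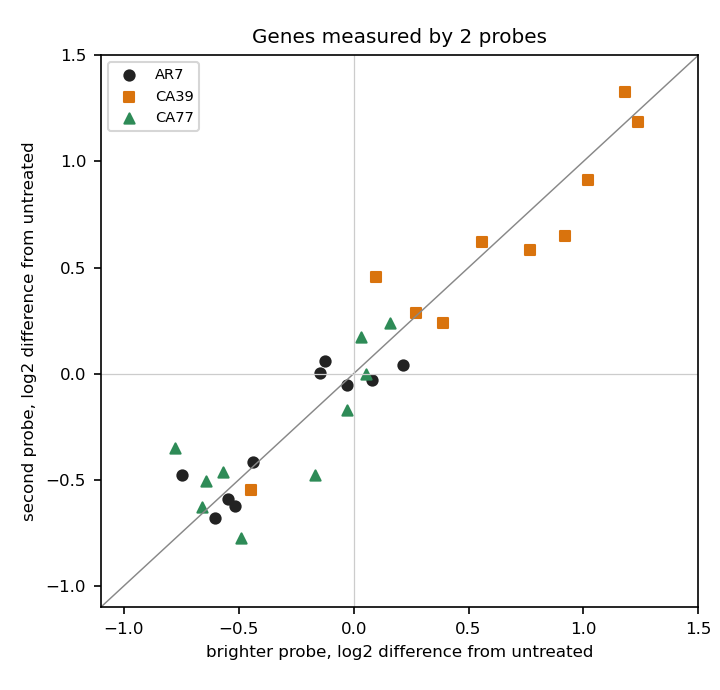
Log2 difference from the untreated array of the brightest probe (x axis) and of a second probe (y axis) for the 10 genes whose 2 probes were well above background on all arrays, with the diagonal as equality. All 10 CA39 points (orange squares) lie in a quadrant of shared sign, as do 7 AR7 points (black circles) and 9 CA77 points (green triangles).

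Genes that border the route were compared in the same way. The fatty acid genes driven by SREBP moved with the synthesis genes for CA39, since 9 of 10 rose past 1.5-fold, against 6.93% of all gene names, and their median was 0.75. Fasn, the fatty acid synthase, read 11.01, 10.61, 11.99 and 10.31, a rise of 0.97 with CA39 and a fall of 0.70 with CA77. Scd2, a desaturase, rose by 1.08 with CA39, and Elovl6, an elongase, rose by 0.89 and fell by 0.76 with CA77. Acaca, Acly, Acss2, Fads1, Fads2 and Scd1 rose by 0.63 to 0.80 with CA39, and Me1 (-0.05) was the gene of the list not called. With AR7 0 of 10 were called and the median was -0.27, and with CA77 2 fell, against 3.53% of all gene names (median -0.26).

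The isoprenoid branch that leaves the route for dolichol, ubiquinone and protein prenylation gave 0 of 10 calls in each comparison, with medians of -0.08, -0.07 and -0.08 for AR7, CA39 and CA77. Background shares of 3.0% to 9.43% in either direction leave few calls to be found among 10 genes, so 0 is near the background. Pdss1 of this list is printed 10 times per array and differed from untreated by -0.23 ± 0.03, -0.42 ± 0.06 and -0.24 ± 0.07 (SD over 10 spots of 1 array pair). Of 10 genes of SREBP processing and sterol-sensing degradation, 1 was called higher with CA39, Ubxn4 (1.05), a share near the 6.93% of all gene names. Of 12 compared genes of sterol storage, transfer and oxidation, Stard5 (0.65) and Gramd1b (0.58503) rose with CA39, against the same 6.93%, and 0 were called with AR7 or CA77. Gramd1b lay on the 1.5-fold line itself (0.58496). Among 8 further LXR targets and lipoprotein uptake genes, Lrp1 (1.11), Pltp (2.23) and Vldlr (2.24, a bound) were higher with CA39, 3 of 8 against 6.93%. Vldlr was well above background on the CA39 array alone, so it entered this count only through the array where it was high. Scarb1 was 0.77 above AR7 with CA39. The median was 0.45 over 8 genes with CA39. Over the 7 genes compared without Vldlr it was 0.01 with AR7 and -0.13 with CA77, so these medians do not cover the same genes.

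**Figure D5:**
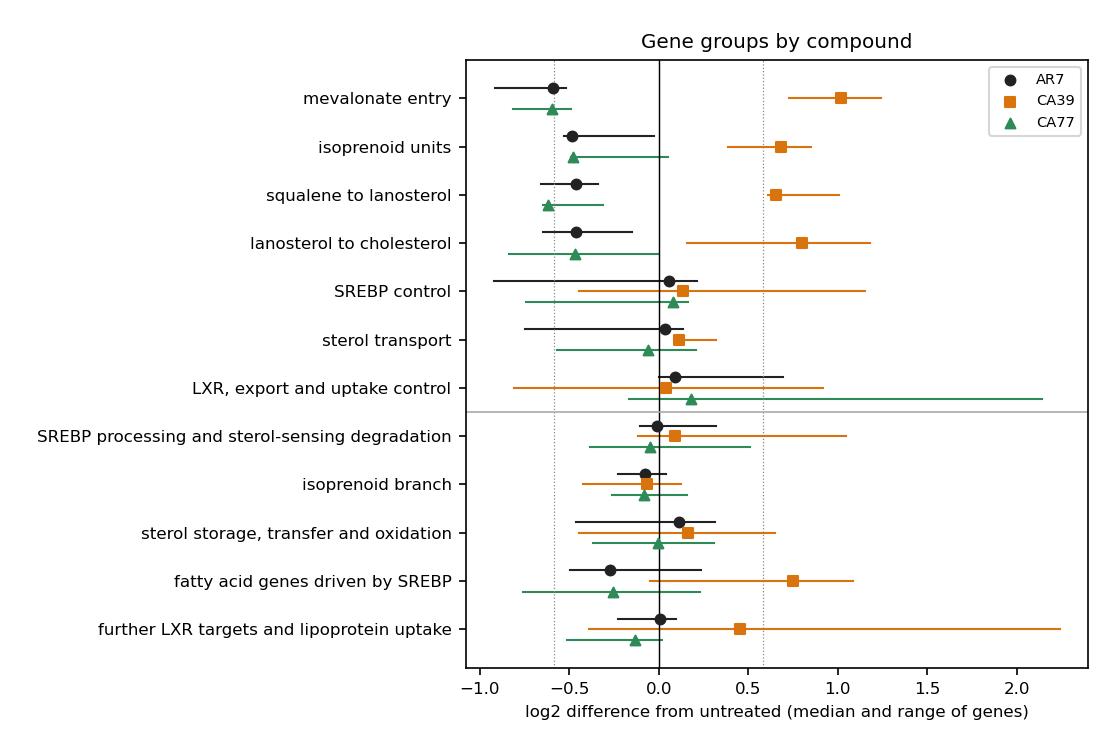
Median (point) and full range (line) of the log2 difference from the untreated array for the 7 steps of the pathway (above the grey line) and 5 bordering gene lists (below it), with AR7 as black circles, CA39 as orange squares and CA77 as green triangles. The 4 synthesis steps have CA39 medians of 0.65 to 1.02, the fatty acid list has 0.75, and the isoprenoid branch has -0.07.

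Measures of the arrays and cells that moved with these values are as follows. Of 12 fibroblast markers 11 were well above background on all arrays and Pdgfrb on the CA39 array alone. Their median difference was 0.85 for CA39 (12 compared) but -0.27 for AR7 and -0.28 for CA77 (11 compared each). Pdgfrb (3.09, a bound) entered only with CA39, where it was high, so these medians do not cover the same genes. With CA39 7 rose, Pdgfrb among them (6.93% of all gene names), while 3 fell with AR7 (3.22%) and 3 with CA77 (3.53%). Col1a1, a chain of collagen I, differed by -1.04, 1.06 and -0.83 with AR7, CA39 and CA77. Their summed level ranged from 19.69 with AR7 to 20.34 with CA39 (log2). Of 12 markers of other cell types, 5 were well above background on all arrays and 2, Cdh1 and Alb, on none. Krt8 (2.38) and Epcam (2.06, a bound) were higher with CA39, Rbfox3 was lower by a bound that the stricter floor removed (-0.72, then -0.05), Cdh5 was higher with AR7 (0.62), and the summed level of this list was 11.33 to 11.82. The part of these shifts in the sterol results was not tested. Slide row 1 held the untreated array and slide row 2 the treated ones, so treatment and slide row cannot be told apart in the comparisons with untreated cells. CA77 was read in scan 2 and the other arrays in scan 1, so scan and compound cannot be told apart in the comparisons with CA77. AR7 and CA39 shared slide row and scan, and between them the synthesis median was 1.33. The share of probes well above background was 69.7% on the untreated array and 52.2% to 61.6% on the treated arrays, and the median net signal was 89.5 to 108 scanner units. The median difference of the spots around these genes lay between -0.13 and 0.09 in every comparison. Synthesis genes in grid rows up to 160 and beyond them gave CA39 medians of 0.73 and 0.95, AR7 medians of -0.48 and -0.51 and CA77 medians of -0.60 and -0.49.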

How the data were processed

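The authors hybridised Cy3-labelled total RNA of 4 cultures to Agilent arrays of 1 slide and read them with Feature Extraction 10.7.3.1. What they deposited per array is the linear intensity and the local background of each of 62976 spots. The study's methods name RMA values. The deposited series table instead equalled the background-subtracted intensity at every one of the 62976 spots of each array, and was used as an alternative source.

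Spot median and background median intensity (the plan named the mean, which the scanner values used here do not give) were corrected by normexp with no offset in limma 3.58.1 under R 4.3.3, quantile normalised over the 59305 gene spots and put on the log2 scale. Outlier spots were left out (142 to 328 per array), and 0 were saturated. The spots of a probe were averaged, which gave 55378 of 55681 probes a value on all arrays. RefSeq transcripts (GRCm38.p6) named 27512 probes and gave 20895 symbols, and other probes kept the accession of the array design. Each gene takes the value of its brightest probe on average. Values that the scanner software did not mark as well above background were raised to the lowest signal among detected probes of that array where they lay under it, and folds against them are bounds. Where neither array was well above background no difference was taken, and 0 was entered where the undetected side came out higher. The array design cites an earlier build, so no gene coordinates are given other than those of RefSeq promoters.

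The tolerance of 0.16 (log2) is the square root of 2 times the median SD over 10 spots among 399 repeated probes. It covers error within arrays only, and the number of arrays limits the precision. Calculations ran in Python 3.11.15 with numpy 2.4.6 and pandas 2.3.3 and were tested on simulated data. All 32 genes are named by step, with the value on each array for those called in any of 6 comparisons, and of the bordering lists those called. The genes and lists were chosen with earlier results of these data known. Alternatives covered background offset, signal column, scaling, source table, choice of probe, detection filter, floor, fold line and position on the array.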

Additional observations from a re-analysis of the deposited data

Results flagged for a closer look

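Against untreated cells, 10 genes passed 1.5-fold in opposite directions with different compounds, in 16 pairs of compounds. Opposite calls were made for 8 of 31 genes with CA39 and AR7, against 0.635% of all gene names, and for 8 of 31 with CA39 and CA77, against 0.471%. Each pair shares the untreated array. None of these differences could be tested, since each group has 1 array. For CA39 minus AR7 the log2 differences were 1.60 for Acat2, 1.71 for Hmgcs1, 1.82 for Mvd, 1.67 for Lss, 1.68 for Cyp51, 1.78 for Nsdhl and 2.07 for Insig1, with CA39 above and AR7 below the untreated level. Abcg1 went the other way at -1.50, a bound because the CA39 array was not well above background, and -1.02 with the stricter floor. With that floor Abcg1 stood at -0.33 with CA39 against untreated, so its opposite call ended and 7 of 31 were left for CA39 and AR7, against 0.468%. The opposite calls of Hmgcs1 with AR7 and of Acat2 and Fdft1 with CA77 each included a value near the 1.5-fold line that passed under it with another processing. That of Nsdhl with CA77 ended when its probes were averaged (-0.78, then -0.56), since its second probe gave -0.35. For CA39 minus CA77 they were 1.32 for Acat2, 1.90 for Pmvk, 1.72 for Mvd, 1.23 for Fdft1, 1.65 for Lss, 1.87 for Cyp51, 1.96 for Nsdhl and 1.89 for Insig1. Mvd, Lss, Cyp51, Nsdhl, Acat2 and Insig1 were opposed to CA39 with both of the other compounds.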

How the results depend on the processing

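The median of the synthesis genes kept its direction and stayed within the tolerance in 60 of 60 recalculations: -0.57 to -0.49 for AR7, 0.70 to 0.89 for CA39, -0.53 to -0.49 for CA77, 1.26 to 1.34 for CA39 over AR7, 1.19 to 1.32 for CA39 over CA77 and 0.02 to 0.07 for CA77 over AR7. Of 132 recounts of calls among the 32 genes 106 stayed within 1.5 times the count reported and 26 did not. Grid rows over 160, which leave fewer genes to count, gave 3 lower with AR7, 10 higher with CA39, 0 higher and 3 lower with CA77, 10 higher for CA39 over AR7, 11 higher for CA39 over CA77 and 0 higher for CA77 over AR7. The 2-fold line gave 0 higher and 0 lower with AR7, 7 higher and 0 lower with CA39, 0 lower with CA77 and 1 lower for CA39 against AR7. Keeping only genes detected on all arrays gave 0 higher with AR7, 0 lower with CA39, 0 higher with CA77, 1 lower for CA39 against each other compound and 0 higher for CA77 over AR7. An offset of 50 gave 0 higher with AR7 and 0 lower with CA39, and the processed signal after quantile normalisation and the floor at the 1st percentile each gave 0 lower with CA39. The deposited series table gave 0 higher with CA77 and 0 for CA77 over AR7, and no filter gave 2 for the latter. Of 1761 values of single genes 1712 stayed, 48 moved and 1 reversed, Nr1h3 with CA77, at -0.13 from the series table. The cause was not tested. No paired analysis was possible because each group has 1 array.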
